A study of Mus musculus with 24 samples.

Results

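The Rab GTPases were examined in RNA sequencing libraries of mouse microglia, the resident macrophages of the brain. Members were taken by symbol: every protein-coding mouse gene named Rab followed by a number, with or without a further letter and digit. This gave 59 of the 35519 genes in the transcript set, and all 59 had transcripts in the files. Rab proteins are small GTPases that switch between an inactive GDP-bound form and an active GTP-bound form, and in the active form each marks a particular membrane inside the cell and recruits motors, tethers and other effectors to it. Guanine nucleotide exchange factors (GEFs) switch them on, GTPase-activating proteins (GAPs, most with a TBC domain) switch them off, and GDP dissociation inhibitors (GDIs) keep the lipid-anchored inactive form soluble. In a phagocyte, a phagosome matures by passing from Rab5 to Rab7 membranes before it fuses with lysosomes.

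Each library came from 1000 cells sorted from the whole brain of C57BL/6 mice as negative for Ly6C and positive for CD11b and Fcrls, and was prepared with Smart-Seq2, which reads whole transcripts with neither molecular identifiers nor strand. The 24 libraries fall into 8 groups: female and male mice that were wild type (WT) or lacked neuroligin-4 (NL4-/-), an adhesion protein of synapses, each as control or phagocytosis samples. Each of the 4 control groups had 2 libraries and each of the 4 phagocytosis groups had 4; the design text states 1 more phagocytosis replicate a group, which was not analysed here. The labels give neither the age of the mice nor the material that phagocytosis samples took up, and they call the samples biological replicates without saying whether cells of several mice were pooled.

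The libraries held 421107 to 1013797 expected reads, estimates that divide a read among the transcripts it fits, and counting error alone makes genes with few reads imprecise. Nlgn4l, the gene knocked out, had 0 transcripts in the set, so the NL4-/- label could not be checked. The 12 microglia markers together held 37118 to 52599 CPM (reads scaled to a library total of 1e6) in controls and 23198 to 51111 in phagocytosis libraries, and all 12 were lower on average in the latter. All 10 markers of border-associated macrophages were higher on average in phagocytosis libraries. Their sum was 57.2 to 140 CPM in controls and 180 to 564 in phagocytosis libraries, with no overlap, and Cd163, Lyve1 and Pf4 had a median of 0 in controls. Siglec1 (means of 31.3 and 116 CPM) and Ms4a6c (54.9 and 123) held most of this sum. Every other marker of the list had means of at most 12.9 CPM. Monocyte markers (7 of 8 higher, 21.3 to 84.7 against 34.2 to 188 CPM) and neuron markers (11 of 12 higher, 18.9 to 55.7 against 43.1 to 129 CPM) shifted the same way. Among the neuron markers Uchl1 carried most of the shift, with a mean of 2.02 CPM in controls and 32.4 in phagocytosis libraries (11 and 352 reads), while Thy1 had 24.9 and 26.9 and the other 10 had means of 0.165 to 2.71. Of the remaining lists, 7 of 10 oligodendrocyte, 7 of 8 astrocyte, 4 of 8 neutrophil, 3 of 8 endothelial and 3 of 10 lymphocyte markers were higher. Median sums in controls and phagocytosis libraries were 146 and 208 CPM for oligodendrocyte, 102 and 101 for astrocyte and 539 and 424 for neutrophil markers. Endothelial markers had 24.8 and 44.1, and lymphocyte markers 364 and 225. Transcripts of satellite-like predicted genes took 4.07 to 23.3% of reads in controls and 1.52 to 16.3% in phagocytosis libraries. The part of these shifts in the results on Rab genes was not tested except where a value is given. In libraries of bulk cells, fewer cells of a type and less RNA per cell cannot be told apart.

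Rab transcripts were a small share of the RNA reads. They took 0.200 to 0.236% of the matched reads in control libraries and 0.211 to 0.279% in phagocytosis libraries, and 41 to 50 of the 59 genes had a read in any one library. In all, 38 genes passed the filter on low counts and were tested. The other 21 are given by their reads over all 24 libraries. Rab21 and Rab5a, both of early endosomes, had 149 and 105 reads, and Rab37 had 51. Rab3c had 31 reads, Rab27b 30, Rab42 27, Rab15 21, Rab26 and Rab36 20 each, Rab19 17, and Rab9b and Rab13 12 each. Rab3b had 10 reads, Rab25 and Rab30 9 each, Rab33a and Rab40b 7 each, Rab44 5, Rab38 3, Rab17 2 and Rab39b 1. Many of these are known from neurons, epithelia or secretory cells.

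Levels were compared between genes as deposited TPM, which divide by transcript length, summed per gene and averaged over the 24 libraries. Rab34, which acts in lysosome positioning and macropinocytosis, came first at 282 ± 124 TPM (SD, n = 24), but 260 of these came from 1 short transcript with a retained intron, described further on. Rab11a, of recycling endosomes, followed at 181 ± 69.1 TPM, of which 61.6 came from a transcript of only 462 bases. Rab7, the main late endosomal Rab, had 139 ± 46.2 TPM and Rab11b 93.8 ± 34.4. Neighbours in this order differed by less than the SD between libraries. Rab1b (84.1 ± 32.5) and Rab1a (74.7 ± 23.8), which carry cargo from the endoplasmic reticulum to the Golgi, led the secretory pathway. Rab4b (68.3 ± 20.03) and Rab31 (54.4 ± 18.4) led the early endosomal members; 65.0% of the exonic bases of Rab4b also lie in Gm21983, so the level of Rab4b is uncertain. Rab27a (14.3 ± 6.46) and Rab3a (6.09 ± 3.86) led the members of regulated secretion, and Rab28 (8.55 ± 5.20) and Rab40c (7.96 ± 4.57) the less studied ones.

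**Figure D1:**
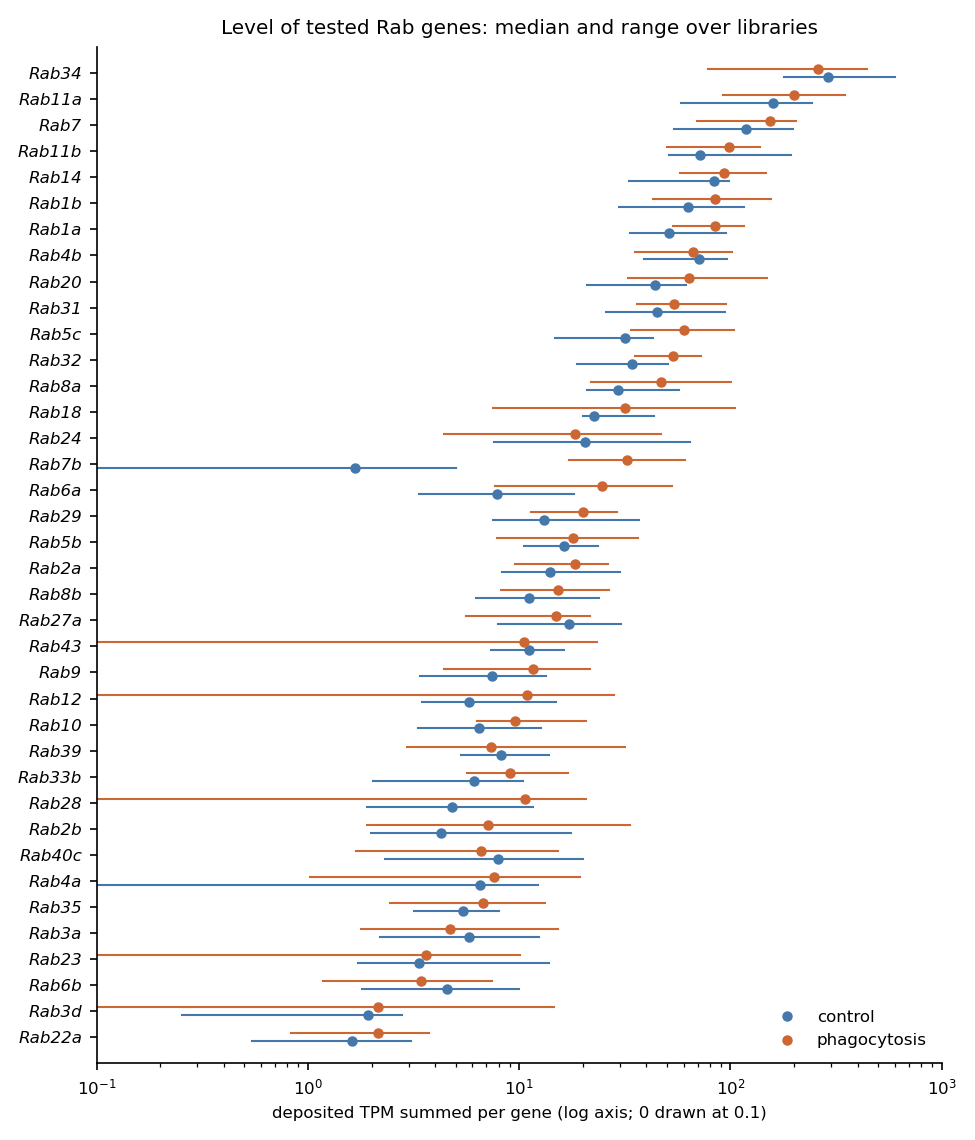
Deposited TPM of the 38 tested Rab genes on a log axis, with the median (point) and the lowest and highest library (line) of the 8 control (blue) and 16 phagocytosis (orange) libraries; a value of 0 is drawn at 0.1. Rab34, Rab11a and Rab7 stand highest, and Rab7b is the gene whose 2 lines do not meet.

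The 2 states were set against each other, averaging the 4 sex and genotype groups, to see which Rab genes differ between them. Rab7b, a Rab of late endosomes and lysosomes found mainly in monocytes, macrophages and dendritic cells, rose by 4.04 on the log2 scale. Rab5c of early endosomes and Rab6a of the Golgi rose less, and Rab6b, Rab27a and Rab34 fell. These 6 of 38 tested genes, 3 higher and 3 lower, passed edgeR's quasi-likelihood test at an adjusted p of 0.05, against 13.6% of all 9803 tested genes (8.41% higher and 5.18% lower). A share of 15.8% is near that background, so the count is no result about the family. The median log2 fold change was 0.02 over the 38 genes and -0.01 over all tested genes, with 19 of the 38 above 0 and 19 below.

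**Figure D2:**
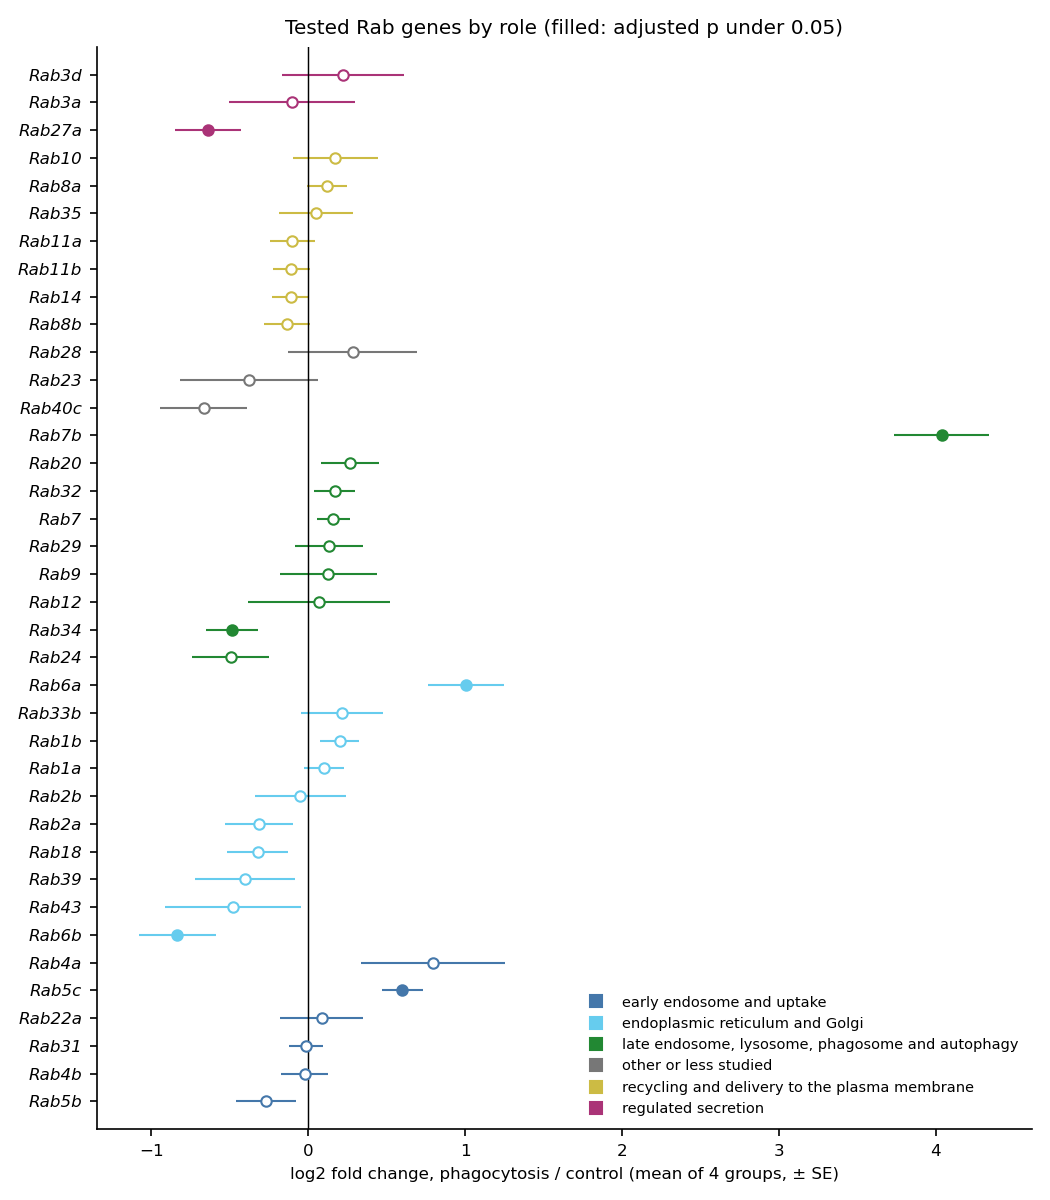
Log2 fold change of phagocytosis over control with its standard error (SE) for the 38 tested Rab genes, grouped and coloured by role; filled points passed an adjusted p of 0.05. Rab7b stands apart at 4.04, while the recycling Rabs lie between -0.13 and 0.17.

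Among the late endosomal and lysosomal members, 9 of 13 were tested, 1 rose and 1 fell. Rab7b (ENSMUSG00000052688, chr1:131688695-131715439, GRCm38, + strand) had 0, 7.93 and 13.4 CPM as the lowest, median and highest control value, in CPM with TMM normalisation, which corrects library totals for composition. In phagocytosis libraries the lowest, median and highest were 45.6, 86.7 and 155 CPM. All 16 phagocytosis libraries lay above all 8 controls, and Rab7b was the only tested Rab whose states did not overlap. Of all tested genes, 0.847% had no overlap in either direction. Means were 6.55 ± 4.32 (SD, n = 8) and 85.8 ± 30.4 CPM (n = 16), a log2 fold change of 4.04 ± 0.31 (SE, edgeR adjusted p = 2.2e-10). This mean of 4 groups is raised by female NL4-/- mice, whose 2 controls had 0 and 1 read, so that the fitted value there depends on the prior count; the other groups had 3.23 to 3.44. Leaving out 1 library moved it between 3.91 and 4.66, the latter without female NL4-/- control 2. The controls rest on 33 reads in all against 962, a pooled ratio of 13.1 with an exact 95% interval of 9.27 to 19.2 that covers counting error only. Rab7b shared 1 of its 4706 stretches of 31 bases with any other gene and none with Rab7, so its reads could be told from those of other genes. Sums of border-associated macrophage and monocyte markers were higher in the same libraries, as given above, and their part in the Rab7b difference was not tested.

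Rab7, which drives fusion of late endosomes and phagosomes with lysosomes in most cell types, did not pass the test. It had 179, 252 and 269 CPM as lowest, median and highest control value and 198, 276 and 407 in phagocytosis libraries. In 10 of 16 phagocytosis libraries it lay above the highest control, and the groups overlapped. Its log2 fold change was 0.16 ± 0.10 (edgeR adjusted p = 0.344). Of its 31-base stretches, 17.03% also occur in other genes, chiefly the pseudogene Rab7-ps1. Among the 7 members of this role that were not called, Rab24, Rab20, Rab32, Rab29, Rab9 and Rab12 being the others, log2 fold changes ran from -0.49 to 0.27, with a lowest adjusted p of 0.186.

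Rab34 (ENSMUSG00000002059, chr11:78188430-78192193, + strand) was the member of this role that fell, and its reads came mostly from a transcript annotated as non-coding. Retained-intron transcripts held 71.3% of its reads, mainly Rab34-207 (76.7% of Rab34 reads in controls and 64.9% in phagocytosis libraries), a fragment of 352 bases in 3 exons between chr11:78190353 and 78190933 (GENCODE vM21, GRCm38). Its bases 175 to 352 are shown because most Rab34 reads were assigned to this transcript, with capitals for the 138 bases that lie in 31-base stretches also found in transcripts of other genes. Such stretches made up 93 of the transcript's 322 (28.9%) and were shared with 1200 other genes; the capitals read as a B1 repeat, a short interspersed element present throughout the mouse genome.
Rab34-207: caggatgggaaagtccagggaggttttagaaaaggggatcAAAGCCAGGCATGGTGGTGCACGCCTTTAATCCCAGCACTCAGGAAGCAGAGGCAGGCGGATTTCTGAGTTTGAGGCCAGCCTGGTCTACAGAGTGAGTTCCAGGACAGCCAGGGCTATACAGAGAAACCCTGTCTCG

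Summed over all its transcripts, Rab34 had 74.3, 139 and 152 CPM as lowest, median and highest control value and 50.5, 93.2 and 152 in phagocytosis libraries. The groups overlapped, with 4 of 16 phagocytosis libraries below the lowest control and 1 above the highest. The log2 fold change was -0.48 ± 0.16 (edgeR adjusted p = 0.0474). Split by transcript class, the retained-intron transcripts went from 98.1 ± 33.9 CPM in controls (SD, n = 8) to 62.1 ± 26.0 (n = 16), whereas the protein-coding transcripts had 26.9 ± 7.34 and 31.4 ± 11.8. With protein-coding transcripts only, an alternative chosen after seeing the data, the sign turned: log2 0.17, adjusted p = 0.683. The call was also lost in 17 of 24 fits that left out 1 library, where the log2 ran from -0.59 to -0.31. The satellite-like share given above was also lower in phagocytosis libraries. With satellite-like transcripts left out, Rab34 had a log2 of -0.47 and an adjusted p of 0.0535, and without the 3 controls with over 20% satellite-like reads -0.32 and 0.423. DESeq2 (adjusted p = 0.0558) and edgeR with RLE size factors (0.0534) did not call it either, and in all the call was kept in 2 of 10 alternatives.

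**Figure D3:**
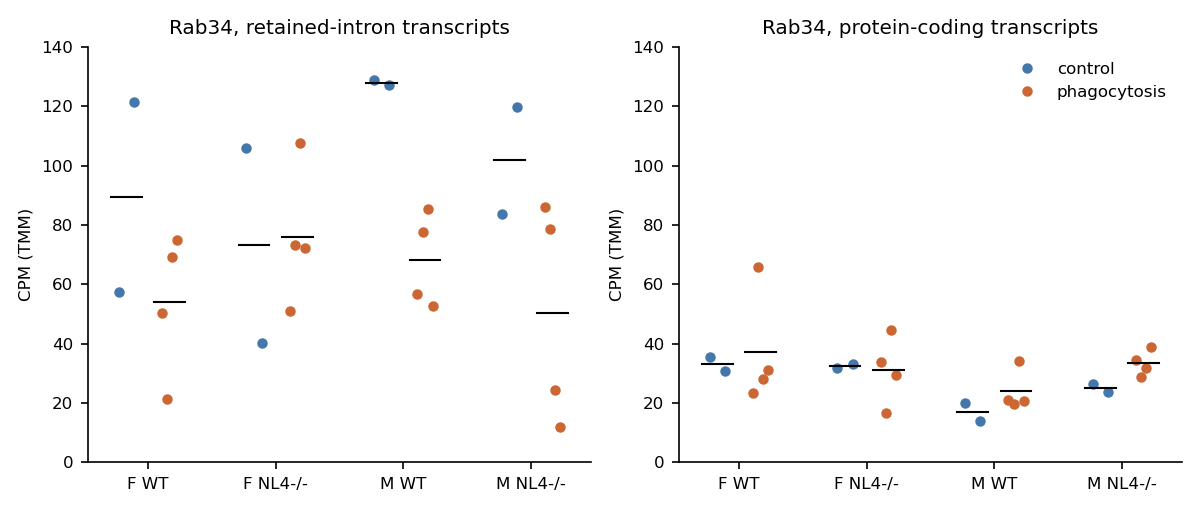
CPM (TMM) of Rab34 in each library, split into retained-intron (left) and protein-coding (right) transcripts, by sex (F, M) and genotype, with control in blue, phagocytosis in orange and a line at each group mean. The 2 male WT controls stand at 129 and 127 CPM of retained-intron reads, above all 4 male WT phagocytosis libraries. In each of the other sex and genotype groups, retained-intron reads overlap between the states. Over all libraries, both retained-intron and protein-coding reads overlap between the states.

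Of the early endosomal members, 6 of 9 were tested and Rab5c (ENSMUSG00000019173, chr11:100715009-100738215, - strand) rose. Rab5c is a form of Rab5, the family that governs fusion of early endosomes and young phagosomes. Its lowest, median and highest values were 51.6, 69.4 and 82.7 CPM in controls and 71.9, 110 and 138 in phagocytosis libraries. In 14 of 16 phagocytosis libraries it lay above the highest control, and the other 2, female NL4-/- phagocytosis 3 and 4, lay within the control range but above both female NL4-/- controls. Rab5c and Rab7b were thus the 2 tested members without overlap within each sex and genotype, where 2.01% of all tested genes had none (1.82% higher). Means were 69.3 ± 11.2 and 109 ± 18.7 CPM, a log2 fold change of 0.60 ± 0.13 (edgeR adjusted p = 0.00236). Its sister Rab5b had a log2 fold change of -0.27 ± 0.19 (adjusted p = 0.383), Rab5a was under the filter, and Rab5c shared no 31-base stretch with either. Without the 3 control libraries with over 20% satellite-like reads, Rab5c had an adjusted p of 0.0591 at a log2 of 0.57.

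Of the members at the endoplasmic reticulum and Golgi, 10 of 14 were tested, and the paralogs Rab6a and Rab6b changed in opposite directions. Rab6a is the widely expressed Golgi Rab of retrograde and exocytic transport, and Rab6b its form enriched in brain. The first 120 coding bases of both are shown, from the start codon, because reads of such similar genes could be confused; capitals mark the 20 positions that differ. Over 624 coding bases 78.4% were identical, and they had no 31-base stretch in common, so a read of that length without errors fits only one of them.
Rab6a: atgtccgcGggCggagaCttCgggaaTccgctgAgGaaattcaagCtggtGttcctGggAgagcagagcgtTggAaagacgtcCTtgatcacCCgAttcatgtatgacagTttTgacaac
Rab6b: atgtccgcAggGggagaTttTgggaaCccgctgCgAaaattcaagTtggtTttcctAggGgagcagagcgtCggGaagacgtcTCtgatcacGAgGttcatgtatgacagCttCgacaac

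Rab6a (ENSMUSG00000030704, chr7:100607410-100641268, + strand) had 4.77, 16.8 and 30.3 CPM as lowest, median and highest control value and 12.6, 37.8 and 59.5 in phagocytosis libraries. It lay above the highest control in 12 of 16 phagocytosis libraries. Means were 18.1 ± 8.96 and 39.4 ± 13.98 CPM, a log2 fold change of 1.01 ± 0.24 (edgeR adjusted p = 0.00503). Exons of Mrpl48, on the opposite strand, cover 19.0% of Rab6a's exonic bases, and without strand reads there cannot be told apart; Mrpl48 itself had a log2 fold change of -0.28 ± 0.17 (adjusted p = 0.287). With phagocytosis libraries 3 and 4 only, Rab6a had an adjusted p of 0.0657 at a log2 of 0.84.

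Rab6b (ENSMUSG00000032549, chr9:103111787-103185276, + strand) had 17.4, 30.97 and 62.0 CPM in controls and 9.15, 19.2 and 32.6 in phagocytosis libraries. In 7 of 16 phagocytosis libraries it lay below the lowest control, and none lay above the highest. Means were 33.3 ± 13.05 and 19.7 ± 8.18 CPM, a log2 fold change of -0.83 ± 0.24 (edgeR adjusted p = 0.0199). Sums of neuron markers went the other way, higher in phagocytosis libraries, chiefly through Uchl1 as given above. Their part in the Rab6b difference was not tested. Rab6b lost its call without any one of the 3 controls female WT 2, male WT 2 and male NL4-/- 2, and without the last, whose value of 62.0 CPM is the highest, its log2 was -0.52 (adjusted p = 0.234). The 8 other tested members of this role, Rab1a and Rab1b among them, ran from -0.48 to 0.21 with a lowest adjusted p of 0.295.

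**Figure D4:**
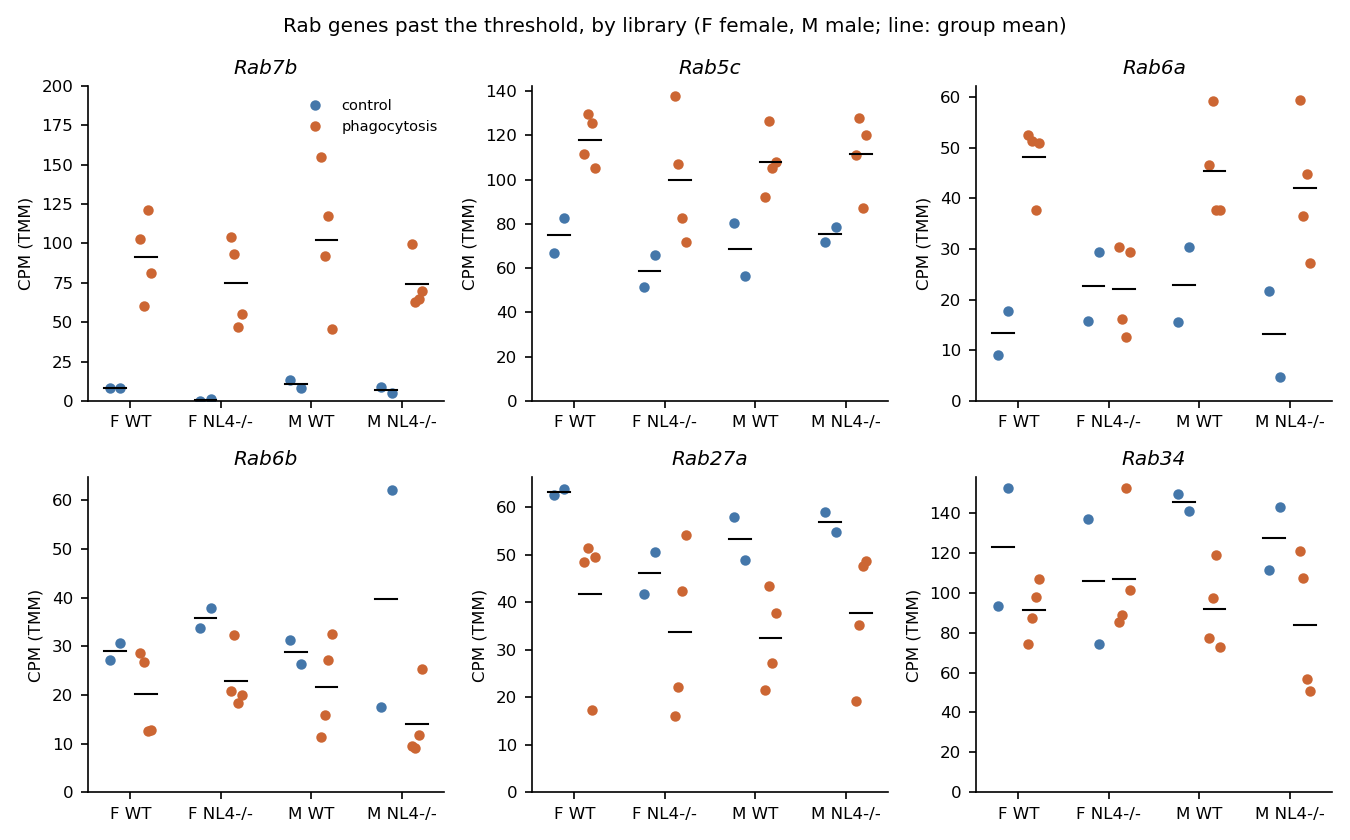
CPM (TMM) of the 6 Rab genes past the threshold in each library, by sex (F, M) and genotype, with control in blue, phagocytosis in orange and a line at each group mean. Rab7b and Rab5c separate the states within each of the 4 groups, and in female NL4-/- mice Rab6a overlaps between the states.

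Of the members of regulated secretion, 3 of 9 were tested and Rab27a (ENSMUSG00000032202, chr9:73044854-73097629, + strand) fell. Rab27a docks lysosome-related organelles and secretory granules at the plasma membrane. It had 41.7, 56.4 and 63.8 CPM as lowest, median and highest control value and 16.1, 40.1 and 54.2 in phagocytosis libraries, 8 of which lay below the lowest control. Means were 54.9 ± 7.48 and 36.4 ± 13.7 CPM, a log2 fold change of -0.64 ± 0.21 (edgeR adjusted p = 0.0395). The adjusted p was above 0.05 in 14 of 24 fits that left out 1 library, reaching 0.114, with the log2 fold change between -0.70 and -0.56.

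None of the 7 tested recycling members was called, and their values lay close to 0. Rab11a and Rab11b, which return receptors from recycling endosomes to the surface, had log2 fold changes of -0.10 ± 0.14 and -0.11 ± 0.12. Rab14, Rab8a, Rab8b, Rab10 and Rab35 were the others, and over the 7 the values ran from -0.13 to 0.17 with a lowest adjusted p of 0.601. DESeq2 on the same counts called none of them either, and none had an unadjusted p under 0.05. The 3 less studied members were not called, Rab40c coming nearest at -0.66 ± 0.28 (edgeR adjusted p = 0.111), with 75.6% of its reads on non-coding transcripts. Among all 38 tested genes, Rab22a (91.9%), Rab23 (74.9%), Rab40c and Rab34 had over 50% of reads on such transcripts, and 11 had over 10%.

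Of the 3 members that rose, the promoters of Rab5c and Rab6a are shown, because both genes rose in the same comparison. Rab7b, which rose most, had no window. Each promoter is given as the 250 bases before the RefSeq start (GRCm38.p6) in the direction of transcription. RefSeq windows were found for 48 of the 59 members, 60 windows in all. Rab7b, Rab2a, Rab4a, Rab18, Rab26, Rab27b, Rab30, Rab36, Rab37, Rab38 and Rab44 were not matched. The Rab5c window is chr11:100738216-100738465 (- strand) and the Rab6a window chr7:100607336-100607585 (+ strand), which extends past the start of the GENCODE gene. Capitals mark a GC box, GGGCGG or its reverse complement.
Rab5c: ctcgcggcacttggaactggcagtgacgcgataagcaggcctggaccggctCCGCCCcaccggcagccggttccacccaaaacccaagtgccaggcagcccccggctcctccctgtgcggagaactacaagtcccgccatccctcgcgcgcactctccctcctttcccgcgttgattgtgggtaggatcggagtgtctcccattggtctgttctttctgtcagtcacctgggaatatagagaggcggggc
Rab6a: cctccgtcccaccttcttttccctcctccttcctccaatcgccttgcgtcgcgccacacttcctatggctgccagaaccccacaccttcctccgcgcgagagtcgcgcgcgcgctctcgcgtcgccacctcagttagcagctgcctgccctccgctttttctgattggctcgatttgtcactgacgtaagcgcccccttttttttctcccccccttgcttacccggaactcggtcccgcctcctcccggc

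Both strands were searched for 6 motifs: the E-box core CACGTG, the AP-1 site TGANTCA, the CRE TGACGTCA, a PU.1 site GAGGAAGT, the interferon response element (GAAA, any 2 bases, GAAA) and the GC box GGGCGG. The Rab5c window held 1 GC box and the Rab6a window no match. The GC box was in 66.7% of the 60 Rab windows and in 32.7% of all 32851 promoter windows of this length. The 60 windows belong to 48 members, so a gene with several starts was counted more than once. Some of its windows can overlap, as in Rab43. The E-box core was in 8.33% of Rab windows and 6.02% of all, AP-1 in 3.33% and 6.75%, CRE in 3.33% and 1.55%, PU.1 in 3.33% and 2.44%, and the interferon element in 1.67% and 2.98%. These are matches of letters, not of bound sites.

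The rise of Rab7b was present in each sex and genotype, while the smaller differences were not called in any single group. Within female WT mice, Rab7b had 7.94 and 8.27 CPM in controls and 60.4 to 121 in phagocytosis libraries, a log2 fold change of 3.44 ± 0.49 (edgeR adjusted p = 0.000328), where 0.581% of all tested genes were called. Male WT mice had 13.4 and 7.91 CPM in controls and 45.6 to 155 in phagocytosis libraries, 3.23 ± 0.51 (adjusted p = 0.00119, 0.326% of genes called). Male NL4-/- mice had 8.72 and 4.77 against 62.7 to 99.8, 3.31 ± 0.59 (adjusted p = 0.00439, 0.602% called). All 4 phagocytosis libraries lay above both controls in each of these groups.

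Female NL4-/- controls had the fewest Rab7b reads, 0 and 1, against 41 to 65 reads in the 4 phagocytosis libraries (47.0 to 104 CPM). The test gave an adjusted p of 5.05e-05 (edgeR; 0.459% of genes called), and the pooled ratio was 85.3 with an exact 95% interval of 15.1 to 3386. The same ratio was 11.7 (6.88 to 21.8) in female WT, 10.5 (5.90 to 20.4) in male WT and 10.6 (4.77 to 29.2) in male NL4-/- mice, so the intervals overlapped. Rab7b was the only 1 of the 38 called in each of these groups. The male WT call was lost without male WT control 2, that of male NL4-/- mice without either of their controls, and that of female WT mice without female WT control 2, which leaves 1 control library assumed to vary like the other groups. Those fits called 0 to 4 genes in all.

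The log2 fold change of Rab6a ran from -0.10 to 1.80 over the 4 groups, and neither the genotype nor the sex difference passed its test. In female NL4-/- mice it had 15.9 and 29.4 CPM in controls and 12.6 to 30.5 in phagocytosis libraries, a log2 fold change of -0.10 ± 0.47, and the states overlapped. The other groups had 1.80 ± 0.47 (female WT), 0.82 ± 0.45 (male WT) and 1.51 ± 0.53 (male NL4-/-), and in each of them all 4 phagocytosis libraries lay above both controls. The genotype difference of the phagocytosis effect over both sexes was -0.60 ± 0.49 (edgeR unadjusted p = 0.223, adjusted p = 1.00), and the difference between male and female mice 0.32 ± 0.48 (unadjusted p = 0.516, adjusted p = 1.00). Rab5c had 0.61 ± 0.25, 0.69 ± 0.26, 0.61 ± 0.26 and 0.49 ± 0.26 in female WT, female NL4-/-, male WT and male NL4-/- mice, values that lie within each other's errors.

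NL4-/- mice were compared with WT mice within each state to see whether the knockout altered Rab expression, and no Rab gene passed the test. Over both sexes, 0 of 38 were called in control libraries and 0 of 38 in phagocytosis libraries, and 0% of all 9803 genes by edgeR; DESeq2 also called 0 Rab genes. The same counts of 0 held within each sex and state. At an unadjusted p under 0.05 there was 1 of 38 Rab genes in each state. Of all 9803 genes, 331 were under that level in controls and 500 in phagocytosis libraries. In controls this was Rab7b, with 7.94, 8.27, 13.4 and 7.91 CPM in the WT and 0, 1.40, 8.72 and 4.77 in the NL4-/- libraries, which overlapped (log2 -1.80 ± 0.75, edgeR unadjusted p = 0.0152, adjusted p = 1.00). In phagocytosis libraries it was Rab6a, at -0.62 ± 0.25 (unadjusted p = 0.0174, adjusted p = 0.944). In female mice Rab6a had 37.8 to 52.4 CPM in WT and 12.6 to 30.5 in NL4-/- libraries, a log2 of -1.11 ± 0.36 (edgeR unadjusted p = 0.00405, adjusted p = 0.938). Rab24, at 1.05 ± 0.40 in female phagocytosis libraries (unadjusted p = 0.0138, adjusted p = 0.938), and Rab7b in female controls (unadjusted p = 0.0103, adjusted p = 1.00) were the other members under 0.05 within a sex. Exons of Prelid1 on the opposite strand cover 62.4% of the exonic bases of Rab24, so its reads are uncertain in counts made without strand.

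The difference of the phagocytosis effect between the genotypes gave 0 called Rab genes and 0% of all genes (edgeR), and 0 Rab genes with an unadjusted p under 0.05. Rab7b came closest there, at 1.40 ± 0.81 (unadjusted p = 0.0670). The difference between the sexes gave 0 called and 0% of all genes, with 1 Rab gene at an unadjusted p under 0.05, Rab14 (0.65 ± 0.24, unadjusted p = 0.0107, adjusted p = 1.00). Male against female mice over all groups gave 0 called Rab genes, against 0.0612% of all genes, and 5 with an unadjusted p under 0.05. The share of all genes under that level is not given here, so the 5 are no result about the family. Of the 5, Rab7b (0.83 ± 0.40) and Rab20 (0.42 ± 0.18) had higher and Rab1a (-0.30 ± 0.13), Rab32 (-0.29 ± 0.13) and Rab7 (-0.24 ± 0.10) lower values in males, each with an adjusted p of 1.00. The Rab7b values of 1.40 and 0.83 take in the female NL4-/- controls, which had 0 and 1 read. The fitted value of that group depends on the prior count. DESeq2 called 0 Rab genes in these 3 comparisons.

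Among the genes for proteins that load, switch and read Rabs, several fell in phagocytosis libraries, chiefly exchange factors and TBC domain GAPs. Of 142 listed regulators and effectors 112 were tested and 15 fell by edgeR, 13.4% of those tested, where 5.18% of all tested genes fell. In either direction 13.6% of all tested genes were called. The share of 13.4% is near that background, so the number of calls is no result about the list. The median log2 fold change was -0.14 over the list and -0.01 over all tested genes. Of the 112, edgeR called 0 higher and DESeq2 called 1, the autophagy receptor Optn. At an unadjusted p under 0.05 by edgeR, 8 of the 112 were higher and 22 lower. Of all 9803 tested genes, 2645 were under that level in either direction. Among the GEFs, 8 of 31 tested genes fell and 0 rose (25.8%, against 13.6% of all tested genes called in either direction). Rab3gap1, a subunit of the complex that activates Rab18 and inactivates Rab3, went from 209 ± 51.1 to 154 ± 25.0 CPM (log2 -0.48 ± 0.12, edgeR adjusted p = 0.00525). Sbf2, a DENN domain protein that acts on Rab21, changed by -0.62 ± 0.15 (adjusted p = 0.00637), Dennd1c by -0.43 ± 0.12 (0.0113) and Rin3, which activates Rab5 proteins, by -0.45 ± 0.12 (0.0123). Rab3il1, Hps4, Trappc9 and Dennd4a were the other 4, between -0.33 and -0.47.

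Of 31 tested TBC domain GAPs 5 fell and 0 rose (16.1%, against 5.18% of all tested genes lower and 13.6% called in either direction). Tbc1d16 went from 65.4 ± 17.4 to 45.8 ± 11.9 CPM, a log2 of -0.59 ± 0.16 (edgeR adjusted p = 0.0112). Tbc1d14, which acts in autophagy, changed by -0.43 ± 0.12, Tbc1d9b by -0.40 ± 0.11, Tbc1d2b by -0.56 ± 0.17 and Tbc1d5, a Rab7 GAP bound to retromer, by -0.56 ± 0.19, with adjusted p between 0.0119 and 0.0448. Of 44 tested effectors 1 fell (2.27%, below the 5.18% of all tested genes): Lrrk1, a kinase of Rab7, went from 128 ± 21.1 to 85.8 ± 20.8 CPM (log2 -0.63 ± 0.13, adjusted p = 0.00202), and its call held in all 24 fits that left out 1 library.

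The count of 15 depended on which libraries entered. Without the 3 controls with over 20% satellite-like reads, 2 regulators and effectors fell, Lrrk1 and Rab3gap1, where 80 genes in all fell and 330 rose, against 508 and 824 with all libraries. Leaving out 1 library gave 4 to 19 calls, with 4 without female NL4-/- control 2, 5 without male NL4-/- control 1, 6 without female WT control 2, 7 without male NL4-/- control 2, 8 without female NL4-/- phagocytosis 2 and 9 without male WT control 2. With phagocytosis libraries 1 and 2 only, 23 were called (18 lower and 5 higher, with 18.8% of all genes called), and with libraries 3 and 4 only, 4 (8.33% of all genes). Microglia marker sums differed along the same split, at 23198 to 37927 CPM in phagocytosis libraries 1 and 2 and 32222 to 51111 in 3 and 4, and their part in the counts was not tested.

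**Figure D5:**
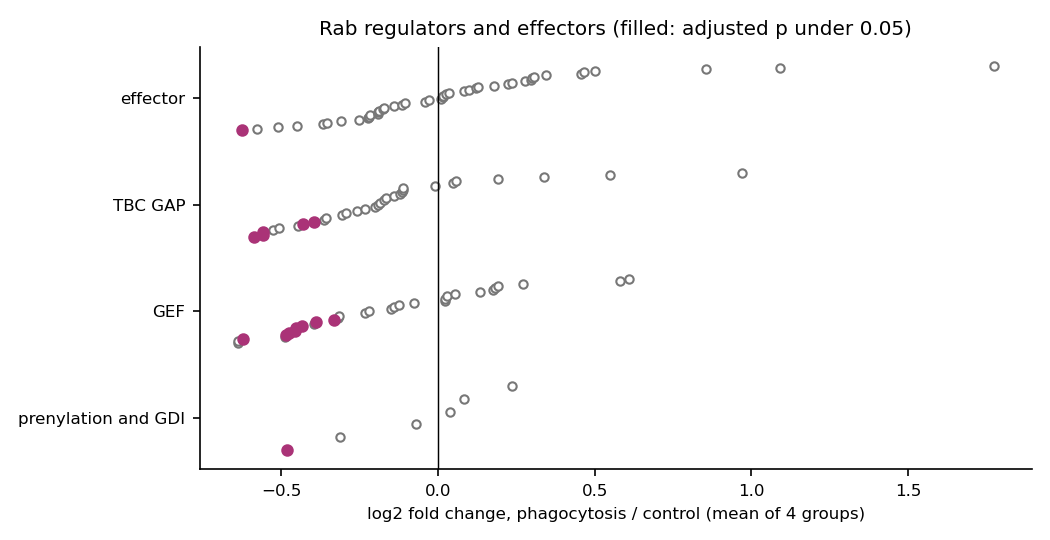
Log2 fold change of phagocytosis over control for the 112 tested Rab regulators and effectors, in 4 lists; each point is a gene, filled where its adjusted p is under 0.05. All 15 filled points lie below 0, 8 of them GEFs.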

How the data were processed

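Smart-Seq2 RNA sequencing of 24 microglia libraries in 8 groups was read from the deposited transcript tables. Per the file headers they hold, for each of 116945 transcripts, an expected count of reads and TPM, as salmon and similar tools write them; their quantifier, its version and index: not given in the sources used here. Neither is any filter on reads. The authors' expected counts are not normalised, and the deposited TPM are divided by effective length and sum to 1e6 in each library. Identifiers were matched to GENCODE vM21 (GRCm38): 116023 matched, of which 99.67% had an identical version, and transcripts without a match (0.274 to 0.379% of reads) were left out.

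Expected counts were summed per gene, rounded and tested with edgeR 4.0.16 (R 4.3.3): quasi-likelihood F test, robust, TMM, edgeR's filter by group at a minimum count of 10, prior count 0.125, and 1 fit of all 24 libraries with 8 group means and no covariate, over 9803 genes. Adjustment was by Benjamini-Hochberg over all of these in each of 14 comparisons, with a threshold of 0.05, and SE were worked back from the fold and the F statistic. The procedure was tested on simulated data for phagocytosis against control with 9384 genes, all given the common dispersion of 0.0812. Changes were put into 50 genes at each fold. It recovered 20.4% of 1.5-fold, 85.7% of 2-fold and 100% of 4-fold changes, and called 0.0326% of unchanged genes. In the data 13.6% of genes were called and dispersion varied between genes, so the rates there may differ. P-values measure the spread between these libraries, and intervals cover counting error only. Marker sums and satellite-like shares are scaled to the library total alone.

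The members, the role lists, the lists of regulators and effectors and the markers were chosen with earlier results of these data known. Genes named are the called members, Rab7, the 2 members of each role with the highest TPM, and up to 4 called genes, by adjusted p, of each list of regulators and effectors. The remaining called regulators, Optn, Mrpl48, and members named in genotype, sex or transcript results were named after their values were seen, and 1 called regulator is not reported here by name. Alternatives were DESeq2 1.42.0, RLE size factors, no filter, length-scaled TPM counts, satellite-like transcripts left out, the replicate number as a block, subsets of libraries, each library left out and, chosen after seeing the data, protein-coding transcripts only.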

Additional observations from a re-analysis of the deposited data

Results flagged for a closer look

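Among 28 groups of 4 phagocytosis libraries, for the 6 called members and Rab7, 3 held a library far from the rest by Dixon's criterion, which chance meets in about 1 group in 20. Female WT phagocytosis 3 had 37.8 CPM of Rab6a where the nearest of the other libraries had 51.0. The same library had 17.3 CPM of Rab27a, against 48.5 in the nearest. Male NL4-/- phagocytosis 4 had 25.3 CPM of Rab6b, against 11.9 in the nearest. Without female WT phagocytosis 3 or male NL4-/- phagocytosis 4 the calls of Rab6a, Rab6b and Rab27a in phagocytosis against control were kept.

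Of 38 tested members, Rab11a was the 1 for which every phagocytosis library moved one way in a group and the opposite way in another. In female WT mice Rab11a had 94.2 and 102 CPM in controls and 56.6 to 87.2 in phagocytosis libraries, a log2 fold change of -0.36. In male WT mice it had 44.6 and 72.5 in controls and 78.3 to 109 in phagocytosis libraries, a log2 fold change of 0.45. The difference between these groups was not tested; that between the sexes over both genotypes was 0.40 ± 0.29 (edgeR unadjusted p = 0.183, adjusted p = 1.00).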

How the results depend on the processing

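In phagocytosis against control, 2 to 7 Rab genes were called over 10 alternatives, against 6 (13.6% of all genes called). The highest was 7 with phagocytosis libraries 1 and 2 only, where 18.8% of all genes were called, and the lowest 2 (Rab6a and Rab7b), where 3.84% were, without the 3 controls with over 20% satellite-like reads (male NL4-/- 1, male WT 2, female NL4-/- 1); that fit also called 0 Rab genes in male WT and 0 in male NL4-/- mice. Rab7b was called over both sexes and genotypes in all 10 alternatives and all 24 fits that left out 1 library, Rab5c and Rab6a in 9 of 10 and all 24. Rab34 was lost in 7 of 10 and had a log2 of 0.17 with protein-coding transcripts only, and Rab27a was lost in 4 of 10.

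Leaving out 1 library gave 3 to 6 Rab genes, with 3 without female WT control 2 or male NL4-/- control 2. It gave 0 to 2 in female WT (2, with Rab43, without female WT phagocytosis 1), 1 in female NL4-/-, 0 to 1 in male WT and 0 to 1 in male NL4-/- mice. In female WT mice 2 were called by DESeq2, by edgeR with no filter (both Rab6a and Rab7b) and with phagocytosis libraries 3 and 4 only (Rab43 and Rab7b), and in female NL4-/- mice 2 with phagocytosis libraries 1 and 2 only (Rab5c and Rab7b). Exons of Gm45140 on the same strand cover 75.35% of the exonic bases of Rab43, so its reads are uncertain. Rab43 had 65, 0, 2 and 4 reads in female WT phagocytosis libraries 1 to 4. Regulators and effectors called were 5 with length-scaled counts, 23 with phagocytosis libraries 1 and 2 only, 4 with libraries 3 and 4 only, 2 without the 3 controls, and 4 to 19 on leaving out 1 library. The cause of these changes was not tested. The genotype, sex and interaction comparisons called 0 Rab genes in all 7 alternatives and all 24 fits.

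Replicate numbers of the labels did not pair single phagocytosis libraries. Those with the same number had a median correlation of deviations of 0.015, and 5 of 16 correlated best with their own number. This does not make the numbers uninformative. Microglia marker sums were 23198 to 37927 CPM in phagocytosis libraries 1 and 2 and 32222 to 51111 in libraries 3 and 4. The source of that difference was not tested. With the replicate block 6 Rab genes were called over all groups (Rab39 in, Rab34 out) and 2 in female WT mice (Rab6a and Rab7b). Over all genes and groups that fit called 928 higher and 718 lower, against 824 and 508 without the block. Most 1.5-fold changes were missed in simulated data, where few genes were changed and all shared the same dispersion.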
